A study of Mus musculus with 68 samples.

Results

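Immediate early genes are the genes that neurons switch on within minutes of synaptic activity, with no need for new protein. The list used here is of neuronal activity genes more broadly, and how fast each responds was not measured. A total of 33 of them were followed here. The AP-1 subunits were Fos, Fosb, Fosl2, Jun, Junb and Jund, and the zinc finger factors Egr1, Egr2, Egr3 and Egr4. The nuclear receptors were Nr4a1, Nr4a2 and Nr4a3, and Npas4 was the neuronal factor. The early response genes were Ier2, Ier3, Ier5, Btg2 and Tiparp. Dusp1, Dusp4, Dusp5, Dusp6, Sik1, Gadd45b and Gadd45g were grouped as signalling regulators. Arc, Homer1, Nptx2, Bdnf, Vgf, Inhba and Ptgs2 were the synaptic and secreted effectors. The 33 genes were taken by symbol from the 18088 genes of the deposited table. All 33 were in the table, and all 33 passed the filter on low values that left 17922 genes for testing.

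In neurons, calcium that enters through glutamate receptors and voltage-gated channels activates calmodulin-dependent kinases and the ERK pathway. These act on factors already bound to DNA, among them CREB at cAMP response elements, SRF with its ERK-regulated partners at CArG boxes, and MEF2. The first products are mostly transcription factors (Fos, Egr and Nr4a families, Npas4), which then act on later genes. Others act directly: Arc removes AMPA receptors from synapses, Bdnf is secreted and feeds synaptic growth, and the Dusp phosphatases switch the ERK and related kinases off again. In cortex the same RNAs are widely used as a record of recent neuronal activity.

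The RNA came from prefrontal cortex of C57BL/6J mice of both sexes at postnatal day 25. All had been reared by mothers through whose milk they received vehicle, fluoxetine (a serotonin reuptake inhibitor) or lithium (a mood stabilizer) from day 3 to day 24, for 3 weeks. The mice were heterozygous for Adnp (HT) or wild type (WT); Adnp encodes a chromatin-binding protein. The dose, the nature of the vehicle and of the mutant allele are not given in the labels. Vehicle libraries are titled replicate 1 to 5 or 6 to 8, and the labels do not say what separates the ranges, which were kept apart throughout. Vehicle range 1 to 5 held 10 WT and 10 HT libraries, and range 6 to 8 held 5 WT (3 female, 2 male) and 6 HT. Fluoxetine had 10 WT and 10 HT libraries, and lithium 8 WT (5 female, 3 male) and 9 HT (4 female, 5 male). The labels do not state that each library came from its own animal, so p-values measure only the spread between these libraries, which may be technical.

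Recovered reads per library ran from 22.4M to 37.5M (median 30.7M), and the lowest value of any of the 33 genes in any library was 59.2 (Egr2). Levels are normalized counts, that is reads divided by 1 size factor per library. Differences were tested with limma on log2(normalized count + 1), as the mean of the female and the male contrast, with p-values adjusted by Benjamini-Hochberg over all 17922 genes and a threshold of 0.05. Log2 differences and fold changes are on that scale, and SE is the standard error from the fit. Adnp was not lower in libraries labelled HT. In range 1 to 5 its median was 2096 in HT and 1692 in WT (log2 difference 0.39, adjusted p = 8.9e-05), and the log2 difference was 0.19 in range 6 to 8, 0.32 under fluoxetine and 0.25 under lithium. Gene-level counts cannot show from which allele a read came, so Adnp does not check the labels here, and HT and WT stand for the labelled genotypes throughout. Clustering on 361 pseudogenes was cut to give 3 sets, a number that was chosen and not found from the values. It put the 10 WT vehicle libraries of range 1 to 5 in a set of their own with HT vehicle males 1 and 2. All fluoxetine libraries and the other 8 HT vehicle libraries of range 1 to 5 formed another set, and all lithium libraries and all vehicle libraries of range 6 to 8 the last. Markers of excitatory neurons of cortex (Slc17a7, Neurod6 and 4 others) were well expressed in every library, with summed levels of 69012 to 112470.0. In a bulk sample, fewer cells of a type and less RNA per cell cannot be told apart.

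Promoters of 6 members that were higher in 1 set of WT vehicle libraries than in the other are shown first, beside those of 3 that did not pass there, Jun, Nr4a2 and Homer1. They were picked after the values were seen. RefSeq windows of the mouse build GRCm38.p6, from 250 bases before to 50 bases after the start of transcription, were on hand for 25 of the 33 genes. The CRE core TGACG, the part of the cAMP response element that CREB contacts, was searched on both strands. It lay in the windows of 15 of the 25 genes, 60.0%, and in those of 23.0% of all genes. For the motifs, all genes are the 27025 with RefSeq windows, whether or not they are in the deposited table. Per window the shares were 47.2% of 36 and 20.8% of 32851. The full element TGACGTCA, which reads the same on both strands and so holds 2 cores, lay in the windows of 2 of the 25 genes, Btg2 and Dusp1 (8%, against 2.03% of all genes). A CArG box, the site of SRF, lay in the windows of Egr2 and Dusp5 (8%, against 1.81%). Bases outside the windows were not searched, and Egr1 and Arc had no window, so other members may carry a box elsewhere. The AP-1 site TGANTCA was in 4% of the 25 (8.97% of all genes), and the E-box CACGTG in 20% (8.09%). Genes with several start sites have several windows, so genes are counted once if any window holds the motif.

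The 250 bases before the start of transcription of 9 members are written 5′ to 3′ along the gene (RefSeq, GRCm38.p6), and capitals mark CRE cores, full CREs and CArG boxes.
Fos (chr12:85473640-85473889, plus strand): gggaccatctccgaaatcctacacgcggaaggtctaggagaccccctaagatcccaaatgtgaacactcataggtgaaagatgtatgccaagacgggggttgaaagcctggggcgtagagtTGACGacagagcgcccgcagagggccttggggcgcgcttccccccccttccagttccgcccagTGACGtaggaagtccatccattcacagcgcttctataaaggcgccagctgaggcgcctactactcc
Junb (chr8:84978749-84978998, minus strand): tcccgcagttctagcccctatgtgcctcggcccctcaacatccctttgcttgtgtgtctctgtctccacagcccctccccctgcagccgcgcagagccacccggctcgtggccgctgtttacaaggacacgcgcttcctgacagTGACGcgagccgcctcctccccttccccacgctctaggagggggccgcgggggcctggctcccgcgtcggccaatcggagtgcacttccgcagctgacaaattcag
Nr4a1 (chr15:101266596-101266845, plus strand): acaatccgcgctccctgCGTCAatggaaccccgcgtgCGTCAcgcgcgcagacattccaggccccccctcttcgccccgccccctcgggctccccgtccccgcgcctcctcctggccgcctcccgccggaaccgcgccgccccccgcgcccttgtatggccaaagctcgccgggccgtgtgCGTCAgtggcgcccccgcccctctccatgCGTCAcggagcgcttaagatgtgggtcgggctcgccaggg
Btg2 (chr1:134079156-134079405, minus strand): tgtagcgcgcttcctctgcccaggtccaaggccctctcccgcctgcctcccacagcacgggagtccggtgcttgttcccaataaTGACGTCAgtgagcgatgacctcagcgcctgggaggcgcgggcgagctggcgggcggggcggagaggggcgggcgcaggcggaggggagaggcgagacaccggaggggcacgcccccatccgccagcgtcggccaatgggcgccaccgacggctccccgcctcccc
Dusp1 (chr17:26508473-26508722, minus strand): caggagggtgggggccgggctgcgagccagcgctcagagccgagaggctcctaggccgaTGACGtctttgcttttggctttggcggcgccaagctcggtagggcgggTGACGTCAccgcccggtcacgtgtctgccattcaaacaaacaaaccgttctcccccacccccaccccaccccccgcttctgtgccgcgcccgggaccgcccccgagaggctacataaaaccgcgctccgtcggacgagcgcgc
Dusp5 (chr19:53528895-53529144, plus strand): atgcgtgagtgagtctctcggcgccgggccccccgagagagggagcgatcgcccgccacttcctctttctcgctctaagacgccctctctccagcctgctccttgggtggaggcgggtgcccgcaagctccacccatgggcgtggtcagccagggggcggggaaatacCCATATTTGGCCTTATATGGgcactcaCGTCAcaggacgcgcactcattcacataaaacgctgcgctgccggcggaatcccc
Jun (chr4:95052223-95052472, minus strand): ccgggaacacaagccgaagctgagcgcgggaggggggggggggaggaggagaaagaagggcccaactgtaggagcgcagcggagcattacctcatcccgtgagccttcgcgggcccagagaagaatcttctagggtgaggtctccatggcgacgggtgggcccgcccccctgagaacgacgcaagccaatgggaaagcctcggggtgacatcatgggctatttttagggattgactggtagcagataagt
Nr4a2 (chr2:57124004-57124253, minus strand): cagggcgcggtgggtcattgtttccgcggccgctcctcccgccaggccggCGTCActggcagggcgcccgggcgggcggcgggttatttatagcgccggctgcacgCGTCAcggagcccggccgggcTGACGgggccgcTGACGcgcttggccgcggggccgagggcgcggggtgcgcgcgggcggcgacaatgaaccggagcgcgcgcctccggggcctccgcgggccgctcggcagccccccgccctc
Homer1 (chr13:93303507-93303756, plus strand): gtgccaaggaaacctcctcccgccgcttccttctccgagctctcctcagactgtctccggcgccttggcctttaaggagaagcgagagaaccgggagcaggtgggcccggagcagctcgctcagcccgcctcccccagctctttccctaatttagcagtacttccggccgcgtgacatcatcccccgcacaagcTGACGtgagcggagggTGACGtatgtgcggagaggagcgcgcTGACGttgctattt

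Counted from the start of transcription, Fos carries cores whose first bases lie at -129 and -66, and Junb carries 1 at -106. Nr4a1 carries 4, at -233, -213, -69 and -40. Btg2 has its full CRE at -166 and Dusp1 at -143, with a further core at -191. Dusp5, which encodes a nuclear phosphatase specific for ERK, holds 2 CArG boxes side by side at -82 and -72 and a core at -55. In the Jun window these 3 motifs were not found. Nr4a2 carries 4 cores, at -200, -144, -123 and -111, and Homer1 3, at -56, -40 and -14, so cores also lay in members that did not pass. Among the 25 genes, those with a core had a median log2 difference between the WT vehicle ranges of 0.82 (n = 15, range -0.44 to 1.73), and those without had 0.31 (n = 10, range -0.02 to 0.85). Of those without a core, Dusp6, Tiparp, Fosl2, Inhba, Jund, Ier5 and Gadd45b passed as higher, and Jun, Ier3 and Gadd45g did not pass. The members with no window had a median of 0.60 (n = 8, range -0.31 to 1.49). A link between cores and the range difference was not tested. These are counts of letters in a window; binding was not measured.

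Levels of different genes were compared per kilobase of exon, as means over all libraries. Egr1, a zinc finger factor and the most abundant member, stood at 1938 normalized counts per kilobase, above 97.0% of all genes tested. Vgf, the precursor of secreted neuropeptides, followed at 1815, Arc at 1639.6 and Jund at 1617. Fosb (62.7), Ptgs2 (65.6, which encodes the prostaglandin synthase COX-2) and Inhba (65.8, which encodes the subunit of activin A) were the lowest, and still above 41.5% to 42.4% of all genes tested. The members also differed in their spread over the 68 libraries. Egr2 ran from 59.2 to 704 normalized counts, 11.9-fold from lowest to highest library. Arc spanned 8.48-fold and Fos 8.13-fold, while Jund spanned 1.83-fold and Nptx2, a synaptic pentraxin, 1.74-fold. As a description, the log2 levels of the 33 genes were centred and averaged within each library. The group medians of that average ran from 0.35 in WT vehicle range 1 to 5 through 0.12 in WT fluoxetine, 0.02 in HT vehicle range 1 to 5, -0.04 in HT fluoxetine and -0.05 and -0.12 in WT and HT lithium, to -0.31 and -0.37 in HT and WT vehicle range 6 to 8. The lowest library of WT vehicle range 1 to 5 (0.11) lay above the highest of both groups of range 6 to 8 (-0.03 and -0.06).

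**Figure D1:**
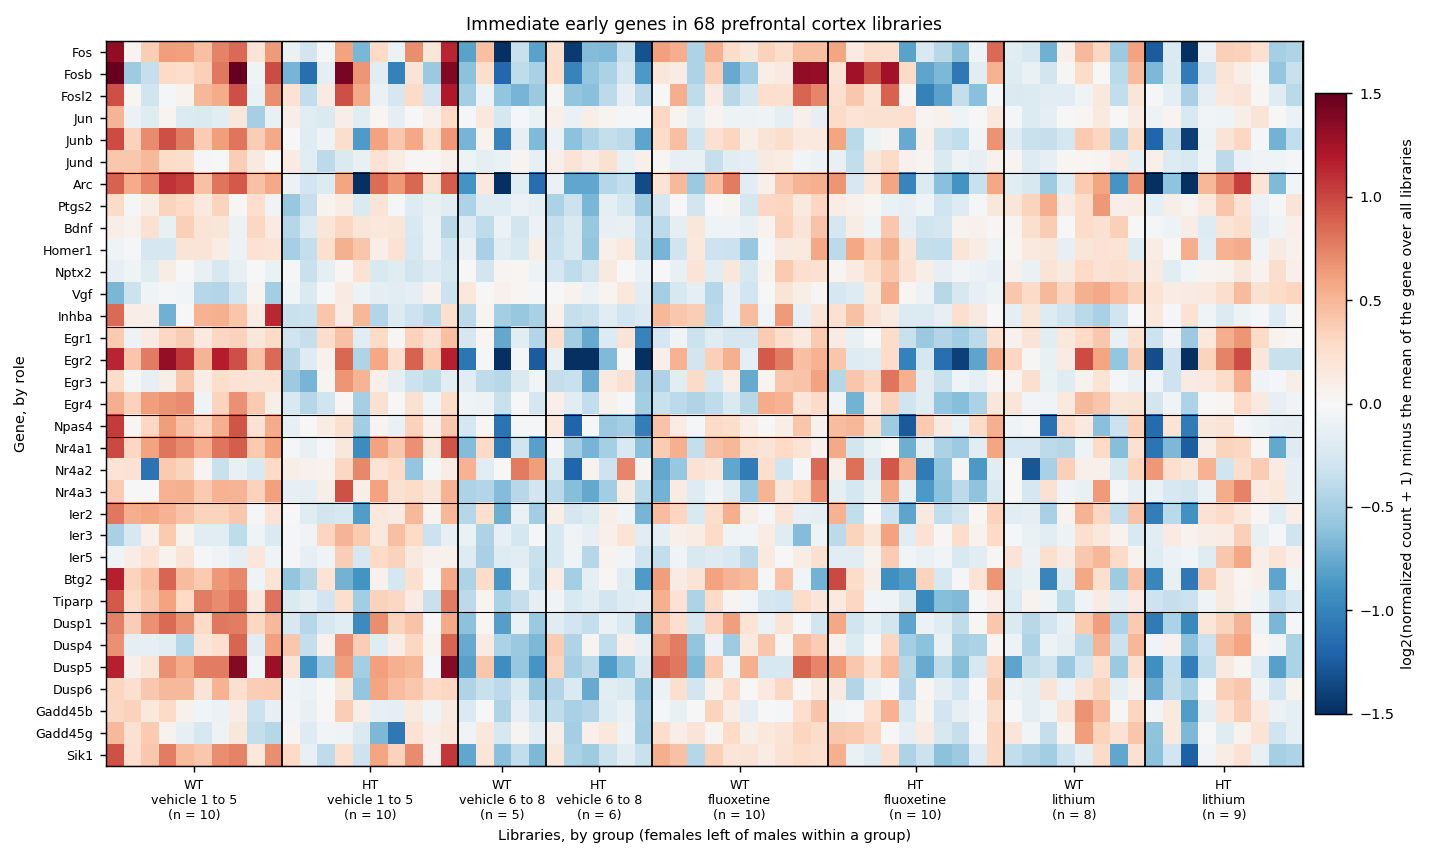
Each row is a gene and each column a library, grouped by genotype, drug and vehicle title range with n in each; colour is the log2 normalized count of the gene in that library minus its mean over all 68, from blue (lower) to red (higher). WT vehicle libraries of range 1 to 5 are red in most rows, both groups of range 6 to 8 are blue in most, and the drug groups lie between.

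Of the comparisons made, the widest among these genes lay between vehicle libraries of the same genotype. In WT, 25 of the 33 genes were higher in range 1 to 5 than in range 6 to 8 and 1, Vgf, was lower; 7 did not pass. Of all 17922 genes, 41.4% passed in that comparison, 20.6% higher and 20.9% lower, while the members split as 75.8% higher and 3.03% lower. The 2 WT ranges lie in different pseudogene sets, so range and set cannot be told apart, and in males only 14 members passed. The median log2 difference over the 33 was 0.71, against 0.01 over all genes tested. Differences were largest for Egr2, at 3.31-fold, Arc at 2.80-fold, Dusp5 at 2.41-fold and Fos at 2.31-fold.

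Among the AP-1 subunits 5 of 6 were higher in range 1 to 5. Fos (ENSMUSG00000021250, chromosome 12, 85473890 to 85477273, plus strand, GRCm38) stood at 544, 1302 and 299 in the 3 females and 757 and 544 in the 2 males of WT range 6 to 8, and at 978 to 2395 (median 1463, n = 10) in range 1 to 5. A female of range 6 to 8, replicate 7, lay among the higher libraries, and the groups overlapped; the log2 difference was 1.21, SE 0.29, adjusted p = 8.5e-04. Junb (ENSMUSG00000052837, chromosome 8, 84974484 to 84978718, minus strand), which pairs with Fos proteins, showed 911, 1536 and 745 in the 3 females and 1364 and 935 in the 2 males against 1884 to 2921 (median 2356, n = 10). No library of the lower range reached the higher one (log2 1.12, SE 0.20, adjusted p = 1.6e-05). Fosb, the source of the long-lived ΔFosB protein, differed by 0.96 (SE 0.36, adjusted p = 0.027) and Fosl2 by 0.85. Jund, the subunit least tied to stimulation, differed by 0.30. Jun, whose protein is the usual partner of Fos, gave a log2 difference of -0.02 (SE 0.08, adjusted p = 0.85) and did not pass.

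Of the zinc finger factors, Egr2 (ENSMUSG00000037868, chromosome 10, 67535475 to 67542188, plus strand) was at 132, 276 and 62.5 in the 3 females and 279 and 118 in the 2 males of range 6 to 8 and at 376 to 704 (median 531, n = 10) in range 1 to 5 (log2 1.73, SE 0.36, adjusted p = 1.2e-04). The 2 ranges did not overlap. Egr4 differed by 0.58 and Egr1 by 0.55 on the log2 scale, and Egr3 by 0.38 without passing (adjusted p = 0.075). Nr4a1 (ENSMUSG00000023034, chromosome 15, 101254269 to 101274795, plus strand), an orphan nuclear receptor, was at 1691, 3249 and 1277 in the 3 females and 2159 and 1508 in the 2 males against 3302 to 5280.1 (median 4200.0, n = 10), again without overlap (log2 1.18, SE 0.21, adjusted p = 1.6e-05). Nr4a3 was higher by 0.82. Nr4a2, which is also a lineage marker of deep cortical neurons, gave -0.44 with a wide error (SE 0.26, adjusted p = 0.17). Npas4, a factor induced selectively by calcium entry and shapes inhibitory synapses, was higher by 0.74 (adjusted p = 0.01).

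A total of 6 of the 7 signalling regulators were higher: Dusp5 by 1.27, Sik1 (a kinase that restrains CREB coactivators) by 1.02, Dusp1 by 1.0, Dusp6 by 0.75, Dusp4 by 0.65 and Gadd45b by 0.29 on the log2 scale. Dusp6, which keeps ERK2 inactive in the cytoplasm, had the smallest adjusted p of all members (1.3e-06), with 1549, 1681 and 1625 in the 3 females and 1850.3 and 1436 in the 2 males of range 6 to 8 and 2422 to 3056 (median 2750.5, n = 10) in range 1 to 5, and the groups did not overlap. Gadd45g, related to Gadd45b, gave 0.06 (adjusted p = 0.78). Of the other early response genes Tiparp, Btg2, Ier2 and Ier5 were higher by 0.83, 0.81, 0.72 and 0.31, and Ier3 gave 0.07 without passing.

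The synaptic and secreted effectors were divided. Arc (ENSMUSG00000022602, chromosome 15, 74669083 to 74672570, minus strand) was at 2385, 4957 and 1335 in the 3 females and 3981 and 2007 in the 2 males of range 6 to 8 and at 6028 to 9414 (median 7576, n = 10) in range 1 to 5, so the highest library of the one lay under the lowest of the other (log2 1.49, SE 0.34, adjusted p = 3.6e-04). Inhba was higher by 0.71, Ptgs2 by 0.36 and Bdnf by 0.34. Vgf was lower: 5932, 5274 and 5548 in the 3 females and 5405 and 5221 in the 2 males of range 6 to 8, and 3287 to 5461 (median 4319, n = 10) in range 1 to 5 (log2 -0.31, SE 0.09, adjusted p = 0.0059). Homer1, whose short form is the activity-induced one, gave 0.19 and Nptx2 -0.03; neither passed. The table counts each gene as a whole, so the short form of Homer1 and the single Bdnf promoters cannot be read apart from it. In all, 11 of the 33 genes (33.3%) had WT ranges that did not overlap, as did 10.1% of all genes tested. A total of 20 of the 26 calls held when each library was left out in turn. Gadd45b was lost with edgeR, with TMM scaling and without any of 37 libraries, Fosb without any of 6, and Bdnf, Btg2, Ier5 and Npas4 without 1 each (WT vehicle male 6 for Bdnf, male 7 for Btg2 and Ier5, female 8 for Npas4).

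**Figure D2:**
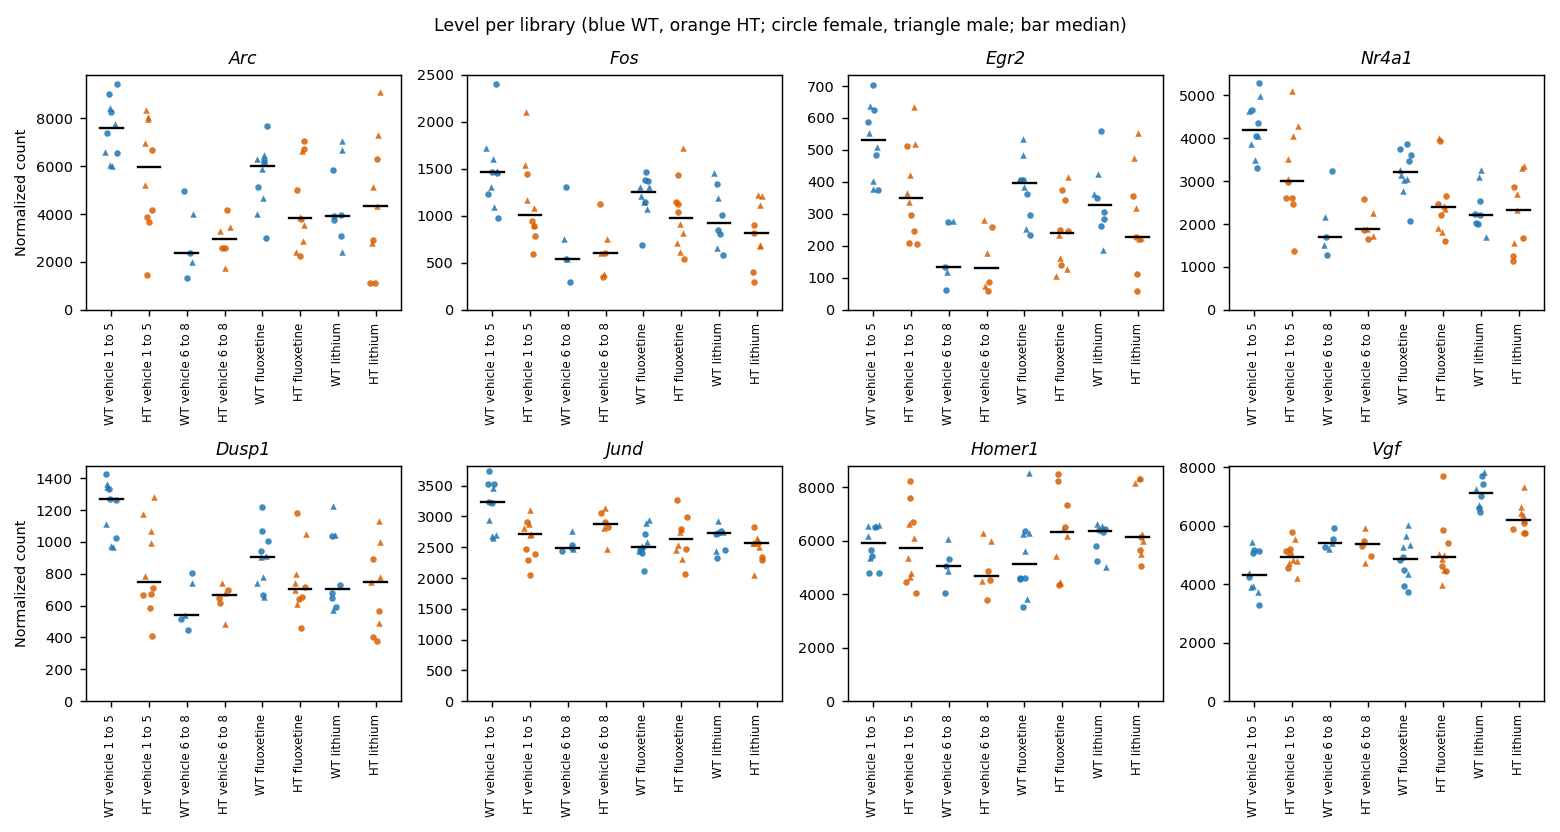
Each panel plots the normalized count of a gene (vertical axis, from 0) in every library, by genotype, drug and vehicle title range; the bar is the group's median. The medians of Arc, Fos, Egr2, Nr4a1 and Dusp1 are highest in WT vehicle range 1 to 5 and lowest in the vehicle groups of range 6 to 8, the median of Jund is also highest there, and Vgf is highest under lithium.

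In HT the same contrast of title ranges was positive for 29 of the 33 genes, and 5 passed, all of them higher in range 1 to 5 (15.2%, against 4.41% of all genes, 2.17% higher and 2.24% lower). These were Egr2, Nr4a3, Junb, Dusp6 and Gadd45b. Egr2 was at 59.2 to 281 (median 132, n = 6) in range 6 to 8 and 206 to 634 (median 351, n = 10) in range 1 to 5. The 2 groups overlapped, with a log2 difference of 1.42, SE 0.33, adjusted p = 0.0088. Nr4a3 differed by 0.71 and Dusp6 by 0.55; these 2 calls held without each library in turn. Fos (0.86, adjusted p = 0.055), Nr4a1 (0.62, adjusted p = 0.057) and Arc (0.82, adjusted p = 0.11) did not pass. The median over the members was 0.28, against 0.0043 over all genes. Of the 25 genes higher in WT, 24 were positive in HT and 24 had a smaller value there. The count of 5 became 2 without HT vehicle female 7 or male 8, and 3 without HT vehicle female 3, 4 or 8 or male 1, 2, 5 or 6. It became 8 without HT fluoxetine male 5 or HT vehicle female 6, and 9 without HT vehicle male 4. With HT vehicle males 1 and 2 both left out it was 3.

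Whether the range difference itself differed between the genotypes was tested as HT minus WT. In range 1 to 5 the WT libraries lie in another pseudogene set than most HT libraries. Genotype and set thus cannot be told apart in this test. Jund was the 1 member that passed, by limma with adjustment over all genes (log2 -0.44, SE 0.10, adjusted p = 0.018), where 2.04% of all genes passed. Jund was at 2538, 2438 and 2495 in the 3 females and 2761 and 2465 in the 2 males of WT range 6 to 8 and 2649 to 3739 (median 3231, n = 10) in WT range 1 to 5, whereas HT libraries ran at 2479 to 3136 (median 2872, n = 6) and 2046 to 3099 (median 2708, n = 10). In WT the libraries of range 1 to 5 were the higher ones, with overlap; in HT the median of range 1 to 5 was the lower one. For the other 32 genes the differences did not pass, with Tiparp (-0.63, adjusted p = 0.084) and Egr4 (-0.50, adjusted p = 0.14) next. The Jund call was lost without WT vehicle male 6 or male 7, the 2 males of that group, and a second gene passed without WT vehicle male 4. In males only the Jund value was -0.12 and did not pass.

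**Figure D3:**
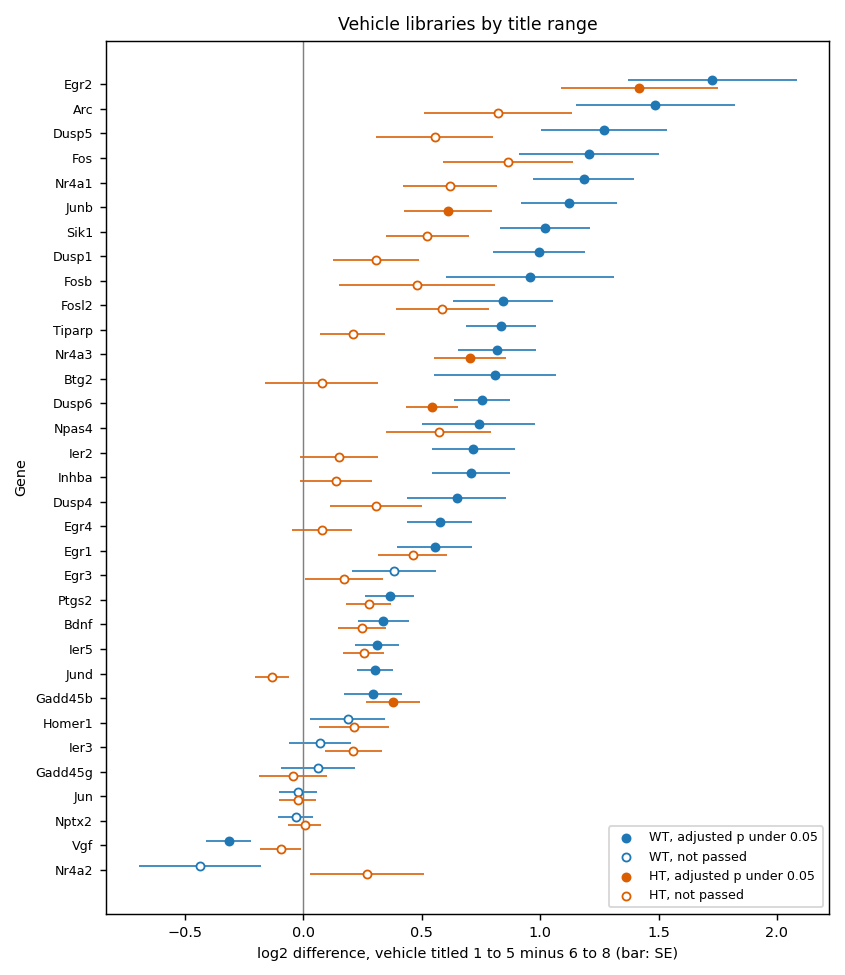
For each gene (vertical axis) the point is the log2 difference between vehicle libraries titled 1 to 5 and those titled 6 to 8 (horizontal axis), with its SE, in WT (blue) and HT (orange); filled points passed at an adjusted p under 0.05. Most genes lie to the right of 0 in both genotypes, with 25 filled WT points and 5 filled HT points there, and Vgf is the 1 filled point to the left.

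Of a second list of 37 genes known to respond to activity, 17 were higher and 2 lower in WT range 1 to 5 (51.4% in all, against 41.4% of all genes; median log2 0.29). In HT 5 were higher and 2 lower (18.9%, against 4.41%; median 0.10). This list and those below were chosen with earlier results of these data known. Between the WT ranges Kdm6b, a histone demethylase, was higher by 1.01 and Klf10 by 0.90, while Sgk1, a kinase induced by glucocorticoids, was lower by 0.39. Of 42 genes of the machinery that carries the signal to the nucleus, 6 were higher and 13 lower in WT (median -0.04), 45.2% in all and near the share of all genes. Creb1 was higher by 0.33, and Camkk1 (-0.58), Mrtfa (-0.41) and Rps6ka2 (-0.37) were lower. Of 10 heat shock genes, whose products refold proteins under stress, 2 were higher and 4 lower, with Hspa1a at -0.51 (60.0% in all). Of 13 clock genes 1 was higher (Bhlhe41, 0.51) and 4 lower (Tef, -0.30), 38.5% in all, under the share of all genes.

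Markers of other cell types and of neighbouring tissue were counted between the WT vehicle ranges too. Of all genes 41.4% passed there, 20.6% higher and 20.9% lower. Olfactory bulb markers were 5 higher and 0 lower of 6, with summed levels of 2849.6 to 30307 in range 1 to 5 and 2587 to 9831 in range 6 to 8. Striatal neuron markers were 0 higher and 7 lower of 8 (4255 to 9701 and 6062 to 20988). Oligodendrocyte markers were 0 higher and 7 lower of 7 (86724 to 226914 and 149901 to 234894), their precursors 0 higher and 5 lower of 5 (6917 to 11442 and 10462 to 12085), and red blood cell genes 0 higher and 5 lower of 5 (5738 to 15252 and 13136 to 21414). Deep layer neuron markers were 0 higher and 3 lower of 6 (5930.4 to 7924 and 7866 to 10101), upper layer markers 2 higher and 1 lower of 5, astrocyte markers 3 higher and 2 lower of 7, microglial markers 1 higher and 3 lower of 7 and excitatory neuron markers 0 higher and 1 lower of 6. Between the HT ranges 4.41% of all genes passed. Summed olfactory bulb markers in HT ran from 3249 to 30338 in range 1 to 5 and from 2737 to 12578 in range 6 to 8. In the same comparison, oligodendrocyte precursor markers were 0 higher and 3 lower of 5 (6976 to 10134 and 9384 to 11359), microglial markers 0 higher and 3 lower of 7, and red blood cell genes 0 higher and 3 lower of 5 (7481 to 13441 and 14156 to 20159). Among all marker lists Tbx21 of the olfactory bulb was at 0 in some libraries of range 6 to 8, and Ttr of the choroid plexus in some libraries of HT range 1 to 5 and of both fluoxetine groups. The part of these tissues in the level of the early genes was not tested.

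Genotype was compared within each treatment and title range. In vehicle range 1 to 5, 10 of the 33 genes were lower in HT than in WT and 1 was higher (33.3% in all). Among all genes 25.9% passed, 13.3% higher and 12.6% lower, so the total is close to that of the table while the members passed mostly in 1 direction. All 10 WT libraries and 2 of the 10 HT libraries lie in 1 pseudogene set and the other 8 HT libraries in another, so genotype and set cannot be told apart for most libraries. With the vehicle ranges pooled 3 members passed, and in males only 1. Btg2, an antiproliferative early gene, was lowest relative to WT: 309.8 to 860.3 (median 531, n = 10) in HT and 555 to 1304 (median 799.8, n = 10) in WT (log2 -0.70, SE 0.21, adjusted p = 0.0097). The lowest HT libraries lay under all WT ones and the groups overlapped. Dusp1 stood at 407 to 1284 (median 749.8, n = 10) and 969 to 1426 (median 1268, n = 10), a log2 difference of -0.60, SE 0.16, adjusted p = 0.0038. Tiparp, a PARP-family enzyme that represses the aryl hydrocarbon receptor, differed by -0.55, SE 0.12, adjusted p = 5.3e-04, and Egr4 by -0.51, SE 0.11, adjusted p = 4.2e-04.

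Junb (-0.49), Nr4a1 (-0.48), Ier2 (-0.43), Inhba (-0.38), Ptgs2 (-0.30) and Jund (-0.27) were also lower in HT, and Ier3, an antiapoptotic early gene, was higher by 0.28. Arc (-0.56, adjusted p = 0.12), Fos (-0.41, adjusted p = 0.2) and Egr2 (-0.55, adjusted p = 0.15) had the same sign and did not pass. The median over the 33 was -0.27, against -0.01 over all genes. For all 33 genes the HT and WT libraries overlapped, and 0.374% of all genes had groups that did not. Without HT vehicle female 5 the count fell from 11 to 7, and 6 calls held without each library in turn. Without HT vehicle males 1 and 2, 9 genes passed. Of the further activity-induced genes 11 of 37 were lower in HT (29.7%, against 12.6% of all genes), Cebpb by 0.77 and Cebpd by 0.77 among them. Astrocyte markers were 0 higher and 4 lower of 7 and mural cell markers 0 higher and 4 lower of 6 in the same comparison, with summed mural levels of 5007 to 6889 in HT and 6151 to 7676 in WT. Their part was not tested.

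In the other 3 settings no member passed for genotype by limma or by edgeR. In vehicle range 6 to 8 the 33 genes were divided, 16 positive and 17 negative, with a median log2 difference of -0.0039, no member at an unadjusted p under 0.05, and 0.491% of all genes passing. Arc levels of the 2 genotypes overlapped widely there: 2385, 4957 and 1335 in the 3 females and 3981 and 2007 in the 2 males in WT, and 1753 to 4154 (median 2948, n = 6) in HT. Under fluoxetine 24 of 33 genes were lower in HT (median -0.16), 7 members had an unadjusted p under 0.05, and 2.66% of all genes passed. Egr2 had the largest gap, 106 to 416 (median 239.6, n = 10) in HT and 233 to 533 (median 395, n = 10) in WT (log2 -0.74, SE 0.29, adjusted p = 0.18). Under lithium 28 of 33 were lower in HT (median -0.18), 6 had an unadjusted p under 0.05, and 3.82% of all genes passed. Gadd45g came closest (-0.39, SE 0.14, adjusted p = 0.1).

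Fluoxetine was set against vehicle range 1 to 5, 8 of whose 10 HT libraries lie in the same pseudogene set as the fluoxetine libraries. The WT vehicle libraries lie in another set, so in WT drug and set cannot be told apart for any gene. The WT comparison shares its 10 vehicle libraries with the genotype and vehicle range comparisons above. In WT, 7 of the 33 genes were lower under fluoxetine and 1 was higher (24.2%), where 29.0% of all genes passed, 14.9% higher and 14.1% lower. The lower genes were Tiparp, Egr4, Junb, Dusp1, Nr4a3, Jund and Dusp6. Egr4, a zinc finger factor that partners NF-kappaB and NFAT, stood at 672 to 1352 (median 759, n = 10) under fluoxetine and 885 to 1503 (median 1278, n = 10) under vehicle (log2 -0.50, SE 0.11, adjusted p = 4.2e-04), with overlap between the groups. Tiparp differed by -0.53 (adjusted p = 6.2e-04) and Jund by -0.31 (adjusted p = 1.2e-04); with Egr4 these were the 3 calls that held without each library. Nptx2 was 1.12-fold higher (adjusted p = 0.035), at 1331 to 2064 (median 1708, n = 10) against 1330.2 to 1697 (median 1467, n = 10). Arc (-0.47), Egr2 (-0.49) and Fos (-0.27) did not pass (adjusted p = 0.19, 0.2 and 0.43). Without WT fluoxetine female 3 the count fell from 8 to 4, and with both vehicle ranges pooled no member passed. Of the further activity-induced genes 14 of 37 were lower (37.8%), Klf2 by 0.73 among them, and red blood cell genes were 5 higher and 0 lower of 5 (10255 to 16668 against 5738 to 15252). Their part was not tested.

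In HT, 1 member was lower under fluoxetine (3.03%, against 0.541% of all genes): Nr4a3, at 519.8 to 1415 (median 798, n = 10) under the drug and 853 to 1833 (median 1092, n = 10) under vehicle (log2 -0.54, SE 0.13, adjusted p = 0.04). The groups overlapped. That call was lost when any of 12 libraries was left out alone: HT fluoxetine female 2, 3 or 5 or male 1, 2, 3 or 4, or HT vehicle female 3 or 4 or male 1, 2 or 5. Conversely 2 genes passed without HT fluoxetine female 1, HT vehicle female 5 or WT fluoxetine male 1. With HT vehicle males 1 and 2 both left out no member passed. Nptx2 did not pass in HT (0.22, SE 0.06, adjusted p = 0.074). The difference between the fluoxetine effects of the genotypes, HT minus WT, passed for Jund (log2 0.31, SE 0.09, adjusted p = 0.021), where 7.04% of all genes passed. Its direction turned against vehicle range 6 to 8 (-0.13) and in males only (-0.043), and with the ranges pooled it was 0.15 and did not pass. Jund was at 2113 to 2941 (median 2507, n = 10) in WT and 2071 to 3260.3 (median 2640.1, n = 10) in HT under fluoxetine, which overlapped. The WT vehicle libraries of range 1 to 5 lie in another pseudogene set than most HT ones. For the difference of fluoxetine effects, genotype and set thus cannot be told apart.

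Against vehicle range 6 to 8 the same fluoxetine libraries gave values of the opposite sign for 25 of the 33 genes in WT and 19 in HT. A gene's pair of values differs exactly by its difference between the vehicle ranges. In WT 9 genes were then higher under fluoxetine (27.3%), where 5.06% of all genes passed. Egr2 (1.23, adjusted p = 0.033), Fos (0.94, adjusted p = 0.049), Dusp5 (0.89) and Nr4a1 (0.77) led, with Fosl2, Sik1, Junb, Inhba and Dusp6. Junb and Dusp6 thus passed in both comparisons with opposite directions: Junb was lower by 0.47 against range 1 to 5 and higher by 0.65 against range 6 to 8. In HT 3 genes were higher (6.58% of all genes passed): Nptx2 (0.22), Ptgs2 (0.36) and Gadd45b (0.38). Nptx2 had a positive sign under fluoxetine in both genotypes against both ranges, with WT values of 0.16 and 0.13 and HT values of 0.22 and 0.22. The labels do not say which vehicle libraries were handled with the fluoxetine mice, so where the sign turned with the range, drug and range cannot be told apart. Range 6 to 8 and WT range 1 to 5 each lie in another pseudogene set than the fluoxetine libraries. Against either of them drug and set cannot be told apart for any gene, whatever its sign.

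**Figure D4:**
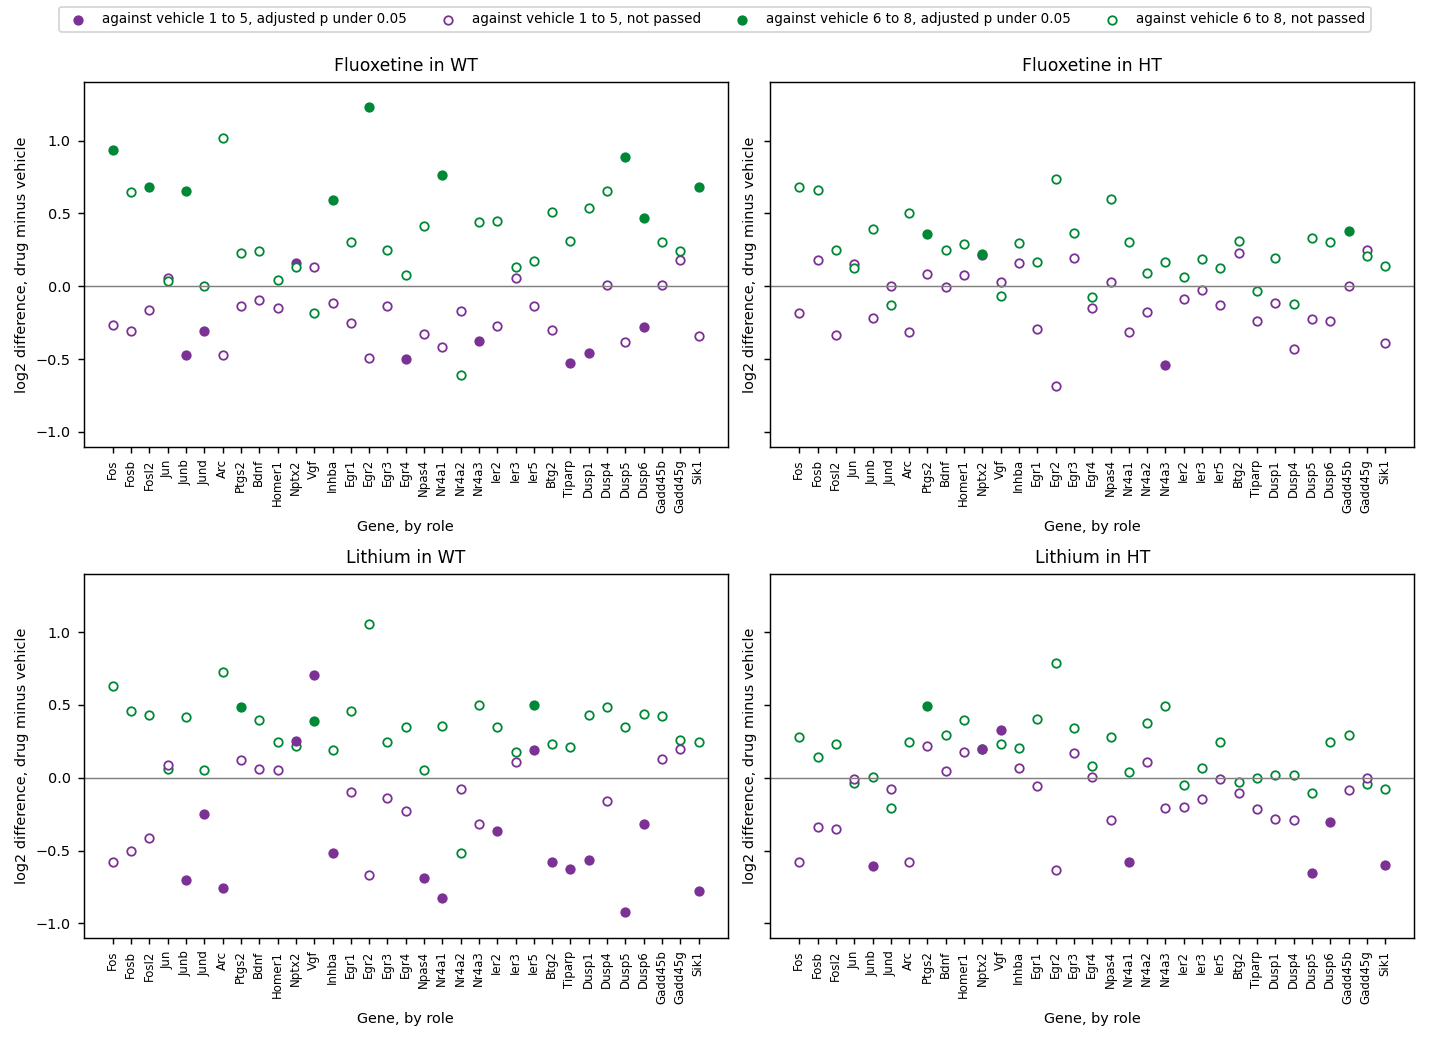
Each panel gives the log2 difference between a drug and vehicle (vertical axis) for each gene (horizontal axis, by role), against vehicle range 1 to 5 (purple) and range 6 to 8 (green); filled points passed at an adjusted p under 0.05. The purple and green points lie on opposite sides of 0 for 25 genes under fluoxetine in WT, 19 in HT, 22 under lithium in WT and 16 in HT, while Nptx2 lies above 0 in all 4 panels and Vgf above 0 in both lithium panels.

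Lithium was set against vehicle range 6 to 8, whose libraries lie in the same pseudogene set. Its WT and HT comparisons share those vehicle libraries with the vehicle range comparisons. In WT 32 of the 33 genes were positive and 3 passed as higher (9.09%, against 0.485% of all genes): Ier5, Ptgs2 and Vgf. Ier5, a regulator of heat shock factor, was at 1589, 1294 and 1579 in the 3 females and 1617 and 1438 in the 2 males of the vehicle group and 1712 to 2551 (median 2109, n = 8) under lithium (log2 0.50, SE 0.10, adjusted p = 0.008). Ptgs2 was at 215, 261 and 259.9 in the 3 females and 279 and 267 in the 2 males, against 317 to 463 (median 346, n = 8). The log2 difference was 0.48, SE 0.11, adjusted p = 0.017. Vgf was at 5932, 5274 and 5548 in the 3 females and 5405 and 5221 in the 2 males, against 6459.6 to 7829 (median 7141, n = 8), with a log2 difference of 0.39, SE 0.10, adjusted p = 0.047. In all 3 the lowest lithium library lay above the highest vehicle library, as it did for Bdnf (0.40, adjusted p = 0.097), Dusp6 (0.44, adjusted p = 0.088) and Nr4a3 (0.50, adjusted p = 0.19), which did not pass. These 6 are 18.2% of the members, and 0.993% of all genes had groups that did not overlap. The median over the members was 0.36, against -0.0013 over all genes. The vehicle group held 5 libraries. When single libraries were left out, 1 gene passed without WT vehicle female 6, WT vehicle male 6 or WT lithium male 1, and none without WT vehicle male 7. The Vgf call was lost without any of 35 libraries.

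In HT 1 gene passed under lithium (3.03%, against 0.100% of all genes). Ptgs2 was at 266 to 395 (median 313, n = 9) under lithium and 183 to 267 (median 225, n = 6) under vehicle, so the groups overlapped at 1 end (log2 0.49, SE 0.10, adjusted p = 0.016). It did not pass without HT lithium male 1, HT vehicle female 8 or HT vehicle male 8. Nr4a3 (0.49, adjusted p = 0.2) and Bdnf (0.30, adjusted p = 0.25) were next. No member passed for a difference between the lithium effects of HT and WT, by limma or by edgeR, with 2 members at an unadjusted p under 0.05 (Nr4a2 and Jund) 0 genes of the whole table passing and 1480 at an unadjusted p under 0.05.

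Against vehicle range 1 to 5 the lithium libraries of WT gave the opposite sign for 22 genes and those of HT for 16. All libraries of range 1 to 5 lie in other pseudogene sets than the lithium libraries, so against that range drug and set cannot be told apart. In WT 13 genes were then lower (39.4%) and 3 higher (9.09%), 48.5% in all. Of all genes 51.8% passed, 25.0% higher and 26.7% lower. Dusp5 (-0.92), Nr4a1 (-0.83), Sik1 (-0.78) and Arc (-0.76) were the lowest members. The 3 higher genes were Vgf (0.71, adjusted p = 3.6e-10), Nptx2 (0.25) and Ier5 (0.19), so Vgf and Ier5 were higher under lithium against both ranges. In HT 5 genes were lower and 2 higher (21.2% in all, against 12.2% of all genes), the latter again Vgf (0.32) and Nptx2 (0.19). Against range 6 to 8 Vgf gave 0.23 (adjusted p = 0.32) and Nptx2 0.20 (adjusted p = 0.26) in HT. With range 1 to 5 as the vehicle, the lithium effects of the genotypes differed for Vgf (-0.38) and Inhba (0.58), where 15.0% of all genes passed, and for fluoxetine against range 6 to 8 no member and 0 genes of the table passed by limma, with 2 members and 639 genes at an unadjusted p under 0.05.

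Sex was compared as the mean of male minus female over the 8 settings. No member passed by limma or edgeR, 4 had an unadjusted p under 0.05, and 0.128% of all genes passed. The values were positive for 28 of 33 genes, with a median of 0.09, and Dusp6 came first (0.18, SE 0.05, adjusted p = 0.3).

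Libraries alike in genotype, drug, sex and title range still differed from each other, and there the genes varied together in 2 blocks. Each gene's log2 level was taken as its deviation from the mean of its 16 cells (genotype by drug by sex, with vehicle by range), and Pearson's r was computed over the 68 libraries as a description. Fos had an r of at least 0.6 with 18 other members. These were the AP-1 subunits Fosb, Fosl2, Jun and Junb and the factors Egr1, Egr2, Npas4 and Nr4a1. The others were the signalling regulators Dusp1, Dusp4, Dusp5, Sik1, Gadd45b and Gadd45g, Ier2, Btg2 and Tiparp, and Arc. Close pairs were Junb with Nr4a1, at r = 0.95 (rho 0.94, and r 0.94 without the 2 libraries farthest from the median of Junb), Junb with Arc at r = 0.94 (rho 0.94), and Fos with Egr2 at r = 0.89 (rho 0.87).

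Homer1, a scaffold of metabotropic glutamate receptors, had an r of at least 0.4 with 8 members, none of which was among the 18: Bdnf, Egr3, Nr4a3, Ier3, Ier5, Ptgs2, Nptx2 and Vgf. Bdnf and Homer1 were closest, at r = 0.88 (rho 0.89, and r 0.88 without the 2 libraries farthest from the median of Bdnf), and Egr3 followed Homer1 at r = 0.82 (rho 0.74). Over the 171 pairs between the blocks the median r was -0.02, with 81 positive and 90 negative, from -0.50 (Jun with Bdnf) to 0.63 (Egr1 with Nr4a3). The blocks were drawn from these same r values, so a low r between them is partly built in. Nr4a3 and Ptgs2 reached the limit with Homer1 and had positive values with Fos too (0.33 and 0.26), so the blocks are not sharply divided. Fos with Homer1 gave r = -0.20 (-0.35 in WT, -0.12 in HT). Jund, Egr4, Nr4a2, Dusp6 and Inhba reached neither limit. Members of 1 family lay in different blocks: Egr3 and Nr4a3 were with Homer1, and Egr1, Egr2 and Nr4a1 with Fos. The points share library, depth and dissection. Fos had r = -0.36 with the excitatory neuron markers, 0.48 with those of the olfactory bulb, 0.45 with those of the choroid plexus and 0.23 with those of astrocytes. For Homer1 the same 4 values were 0.38, -0.36, -0.19 and -0.53, and for Arc -0.02, 0.14, 0.28 and 0.17. With reads per library Fos gave -0.19 and Homer1 -0.11. The part of cell make-up in either block was not tested, and the limits of 0.6 and 0.4 were set after the values were seen.

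**Figure D5:**
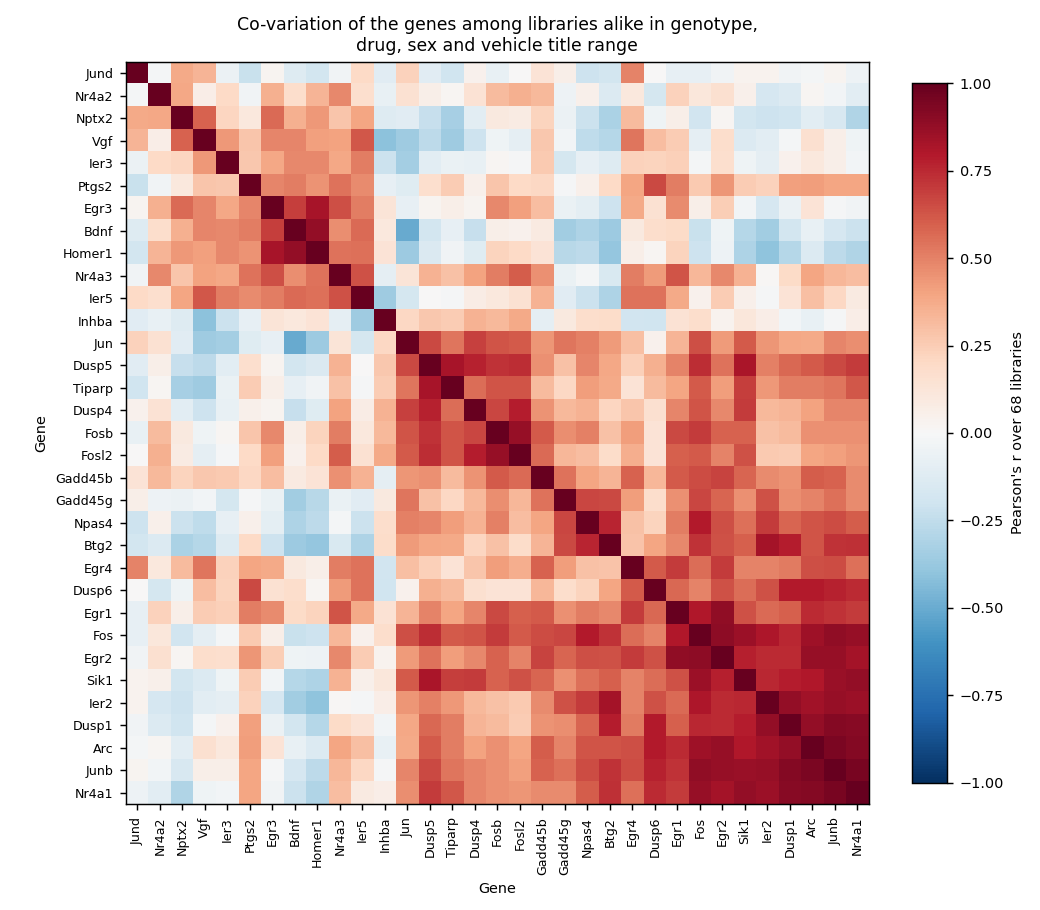
Each square is Pearson's r between 2 genes (rows and columns, ordered by clustering) over 68 libraries, after the mean of libraries alike in genotype, drug, sex and title range was removed; red is positive and blue negative. A large red block at the lower right holds Fos, Junb, Nr4a1 and Arc, a smaller one at the upper left holds Homer1, Bdnf, Egr3 and Ier5, and the squares between them run from blue to red, with Nr4a3 and Ptgs2 red against several genes of the large block.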

How the data were processed

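The 68 libraries were poly(A)-selected, strand-marking libraries of prefrontal cortex RNA, per the labels' protocols. The deposited table holds 1 signal value per gene and library. No source used here says how the values were scaled; judged from the values they are counts divided by 1 size factor per library, since whole reads were recovered from 100% of them within 0.01. The submitters' processing notes name Salmon 0.11.2, R 3.6.0, DESeq2 1.19.11 and GRCm38 without roles. A mean normalized count of 5 or more over all libraries was required (17922 genes; 166 were left out), and genes were tested with limma 3.58.1 in R 4.3.3 on log2(value + 1), with trend and robust options, in 1 fit of 16 cells (genotype, treatment, title range and sex; 52 residual degrees of freedom). Recovered reads, 22.4M to 37.5M per library, were tested with edgeR 4.0.16 as an alternative. Further alternatives were pseudocounts of 0.5 and 5, no filter, TMM scaling, single sexes, the other or pooled vehicle ranges, a replicate block, and each library left out; leaving out HT vehicle males 1 and 2, and the difference of vehicle ranges, were added after the data were seen. The statistics were tested on simulated counts, drawn independently with the same dispersion for every gene. The simulation held no library sets and no co-variation of genes, so it does not check the calls against either. 1 marker gene is not reported here and was left out of its list. The 33 genes and all lists were chosen with earlier results of these data known. Any member could be named, and of each other list up to 4 genes with the smallest p in a comparison. Gene positions and exon lengths come from a GENCODE annotation of GRCm38, and promoters from RefSeq (GRCm38.p6). A total of 8 members, Arc, Egr1, Egr3, Ier2, Dusp4, Nptx2, Vgf and Sik1, have no promoter window here.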

Additional observations from a re-analysis of the deposited data

Results flagged for a closer look

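Within groups of 4 or 5 libraries alike in genotype, treatment, title range and sex, a library far from the others was found 18 times in 363 groups of values, where chance flags about 1 in 20 groups (18.15 in all). WT vehicle female 1 stood out most often, with the highest value of its group for 4 genes: Fosb at 970.5 (next library 425) normalized counts, Fosl2 at 2151 (next library 1138), Jun at 1872 (next library 1354) and Dusp4 at 352 (next library 199.8). HT fluoxetine male 5 was the highest of its group for Fos at 1717 (next library 916), Egr1 at 9929 (next library 6435) and Nr4a1 at 4011 (next library 2417).

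Other high values stood alone. Fosl2 was at 2528 (next library 1342) in HT vehicle male 5 and Junb at 1941 (next library 1296) in WT lithium female 5. Npas4 reached 1122 (next library 904) in WT fluoxetine male 4. Nr4a3 was at 1415 (next library 876) in HT fluoxetine female 4 and at 1833 (next library 1005) in HT vehicle female 4, and Tiparp at 378 (next library 317) in HT lithium female 4. Low values were those of Nr4a1 in WT fluoxetine female 3, 2071 (next library 3465), Nr4a2 in WT vehicle female 3, 258 (next library 639.8), Jund in HT lithium male 1, 2043 (next library 2504), Btg2 in HT lithium male 4, 334 (next library 563), and Tiparp in WT vehicle male 4, 439.8 (next library 644).

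With fluoxetine set against vehicle range 1 to 5, Jund was the 1 member whose response differed between the genotypes by a test of the difference (limma, adjusted over all genes). That is 3.03% of the members, under the 7.04% of all genes that passed. The fluoxetine effect in HT minus that in WT was 0.31 on the log2 scale (adjusted p = 0.021), and the difference between vehicle ranges in HT minus that in WT was -0.44 (adjusted p = 0.018). The first turned to -0.13 against vehicle range 6 to 8 and to -0.043 in males only, and was 0.15 and did not pass with the ranges pooled. The second, where 2.04% of all genes passed, was lost without WT vehicle male 6 or male 7. In males only it was -0.12 and did not pass. Both differences use the same WT and HT vehicle libraries of range 1 to 5. The WT ones lie in another pseudogene set than most HT ones, so in both differences genotype and set cannot be told apart.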

How the results depend on the processing

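Of 57 results for single genes, all 57 kept direction and side of the threshold with pseudocounts of 0.5 and 5 and with no filter. With TMM scaling and with edgeR 56 of 57 did; Gadd45b between the WT vehicle ranges was no longer past the threshold. Same-numbered libraries did not deviate together (median r -0.01, 20.1% of 313 pairs over 0.1, against 22.2% of 1219 differently numbered pairs), so the numbers were not taken as pairs. With a replicate block the member counts were 12 for genotype in vehicle range 1 to 5 (11 without), 27 between the WT vehicle ranges (26), 4 for lithium in WT (3) and 8 for fluoxetine in WT (8), and Junb between the HT ranges no longer passed. With a library left out in turn, 32 of the 57 kept their call and 0 turned direction.

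Leaving out each library gave 7 to 13 members for genotype in vehicle range 1 to 5, 0 to 0 in range 6 to 8, under fluoxetine and under lithium, 0 to 2 for fluoxetine in HT, 4 to 9 in WT, 0 to 1 for lithium in HT, 0 to 4 in WT, 2 to 9 between the HT ranges, 22 to 27 between the WT ranges, 1 to 1 for the difference of fluoxetine effects, 0 to 0 for that of lithium effects, 0 to 2 for that of vehicle ranges and 0 to 0 for sex. In females only the counts were 0 for fluoxetine in HT, 2 in WT, 0 for lithium in HT and in WT, 0 between the HT ranges and 2 for the difference of fluoxetine effects. In males only they were 1 for genotype in range 1 to 5, 3 under fluoxetine, 3 for fluoxetine in WT, 0 for lithium in HT and in WT, 3 between the HT ranges, 14 between the WT ranges, and 0 for the differences of fluoxetine effects and of vehicle ranges. These fits hold fewer samples. With both ranges pooled they were 3 for genotype under vehicle, 0 for fluoxetine in WT, 2 for lithium in HT and 0 for the difference of fluoxetine effects.

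Against the other vehicle range they were 3 for fluoxetine in HT, 7 for lithium in HT, 16 in WT, 0 for the difference of fluoxetine effects and 2 for that of lithium effects. There the sign turned for fluoxetine in HT for Nr4a3 (0.17) and in WT for Dusp6 (0.47), Dusp1 (0.54), Nr4a3 (0.44), Tiparp (0.31), Junb (0.65) and Egr4 (0.077), and for Jund in the difference of fluoxetine effects (-0.13; males only -0.043). Inhba turned in females only (0.011) and Ier2 in males only (0.014) for genotype in range 1 to 5. Without HT vehicle males 1 and 2 the counts were 0 for fluoxetine in HT, 3 between the HT ranges, 1 for genotype under lithium and 2 for the difference of vehicle ranges. The cause was not tested. Counts over all genes moved by more than 1.5 times in single sexes and with other or pooled vehicle libraries: genes passing for fluoxetine in WT went from 5199 to 907 against the other range and 974 pooled, and for lithium in WT from 87 to 9275 and 6478. The median recovered depth of 30.7M reads left no member below a normalized count of 59.2.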
